A study of Drosophila melanogaster with 4 samples.

Results

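The hedgehog locus was examined here as the H3K4me1-enriched regions that overlap 3R:18930001-18990000 (FlyBase release 5), a 60 kb window set around the gene hh with its flanks. The window was set by position and not by a rule on the measured values. Earlier results of these data were known when it was chosen. Of the 7177 enriched regions of ChIP replicate 1, 5 overlapped it by at least 1 base. Of the 9903 of ChIP replicate 2, 4 did, and of the 9501 in the combined list deposited for the whole series, 5 did. The material was nuclei from larvae of Drosophila melanogaster in the third instar, the last larval stage before pupation, of the wild-type strain Oregon-R, with no transgene or treatment named in the labels. Chromatin was precipitated with an antibody against histone H3 monomethylated at lysine 4 (H3K4me1) in 2 ChIP samples, and 2 input samples of sheared chromatin served as their background. The labels do not say whether the replicates came from separate cultures, so the spread between them may be technical. The lists hold no read counts, and the depth behind each region is unknown.

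hh encodes Hedgehog, a secreted and lipid-modified signalling protein that gave the vertebrate Hedgehog family its name. In the imaginal discs of the larva, which form the adult wings, legs and eyes, it is made by posterior cells and received in neighbouring anterior cells through the receptor Patched, which releases Smoothened to act on the transcription factor Cubitus interruptus. H3K4me1 is a histone mark known at enhancers, both active and poised, and beside active promoters. The nuclei came from many tissues at once, so a mark on few cells and a weak mark on many cannot be told apart.

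In RefSeq's table of genome release 6, hh (gene ID 42737, locus tag Dmel_CG4637) lies on 3R between CG31457 and unk. Beyond unk, which encodes a zinc-finger protein, the table lists VhaAC39-2, a subunit of the proton pump of acidic organelles, and then CG13829. On the other side of CG31457 it lists CG31365 and CenB1A. Gene coordinates of release 5, the release of the region lists, were not used here. The regions are therefore given by position, and none is assigned to hh, to its promoter or to a neighbour.

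H3K4me1 lay over most of the hh window in both replicates. It covered 36.7 kb, or 61.1% of the window, in replicate 1 and 40.2 kb, or 67.0%, in replicate 2 (mean 64.1% ± 4.21, SD, n = 2). In the combined list it covered 40.0 kb, or 66.6%. The median 60 kb window of 3R was covered to 27.4% in replicate 1, 33.4% in replicate 2 and, for the combined list, 37.6%. The hh window thus held 2.23 times, 2.01 times and 1.77 times the median of the same list.

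Such coverage was high on 3R but not rare. Of 465 windows laid end to end along the arm, 54 (11.6%) in replicate 1 and also 54 (11.6%) in replicate 2 were covered at least as much as the hh window. In the combined list 88 windows (18.9%) were. Only 33 windows (7.10%) reached the values of the hh window in both replicates. The hh window is not itself among the 465 but straddles 2 of them. These were covered to 30.3% and 73.9% in replicate 1 and to 40.0% and 64.8% in replicate 2. In replicate 1 the more covered of them counts among the 54. The most densely covered window of the arm held 90.9% in replicate 1 and 96.2% in replicate 2. The design has 2 ChIP samples in 1 group, too few for an exact test, so these ranks are descriptions without a p-value.

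**Figure D1:**
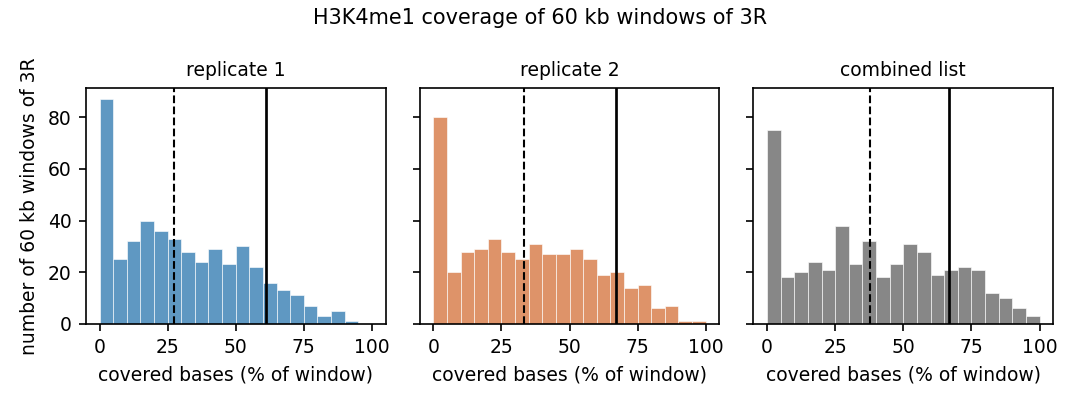
Number of 60 kb windows of 3R (y axis) by the percentage of their bases inside enriched regions (x axis, steps of 5%), for each replicate and the combined list. The solid line marks the hh window, at 61.1%, 67.0% and 66.6%, and the dashed line the median window, at 27.4%, 33.4% and 37.6%; the hh window lies in the upper part of each distribution, below the densest windows.

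The covered part was dominated by a broad domain in the middle of the window. In the combined list its core was 3R:18949502-18975774, a region of 26.3 kb with a score of 1.09. The score is the authors' own value for each region, above 0 for enrichment; its scale is not stated, so scores are ranked within a list. This region was the 16th widest (rank 16) of the 2292 enriched regions of 3R in that list, where 0.698% were at least as wide. Replicate 2 held nearly the same stretch as a single region of 26.1 kb, 3R:18949464-18975583, with a score of 1.26. It was the 4th widest (rank 4) of 2454 regions on 3R, of which 0.163% were at least as wide. Replicate 1 held a region of 22.0 kb, 3R:18954405-18976407, with a score of 0.89, which ranked 21 by width among 1690 regions, of which 1.24% were at least as wide.

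Against the other windows of the arm, the hh window ranked higher by the width of this region than by its total coverage. The widest region alone filled 36.7% of the window in replicate 1, 43.5% in replicate 2 and, for the combined list, 43.8%. The widest piece of the median window filled 10.9%, 9.85% and 13.6%. Of the 465 windows, 17 in replicate 1, 3 in replicate 2 and, for the combined list, 12 held a piece at least as wide. Regions were cut at the edges of these windows, while the widest hh region lay whole inside its own. The comparison thus favours a high rank for the hh window. The number of regions in the window was ordinary, at 5, 4 and 5, against medians of 4, 5 and 5 per window. No difference between the hh window and the other windows was tested.

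A second broad region lay on the low-coordinate side of the domain. The combined list placed it at 3R:18941175-18949208, 8.03 kb wide with a score of 1.06, and only 293 bases separated it from the 26.3 kb region. In replicate 2 it was 8.44 kb wide (3R:18940993-18949436), scored 1.21 and stood 27 bases from the wide region. In replicate 1 it was 6.52 kb wide (3R:18941766-18948286), scored 0.99 and was followed by a gap of 1659 bases. A break was thus present at this place in each list, but its length differed greatly between the replicates.

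Replicate 1 showed a further break that the other lists did not. Within the stretch that replicate 2 held unbroken, a gap of 346 bases (3R:18954059-18954404) of replicate 1 cut off a piece of 4.11 kb, 3R:18949946-18954058, with a score of 0.93. When regions less than 500 bases apart were joined, the domain measured 26.5 kb in replicate 1. In replicate 2 and the combined list, joining took in the second broad region too, and the domain measured 34.6 kb in both. By this width it ranked 21 of 1381 joined domains on 3R in replicate 1, 8 of 1906 in replicate 2 and, for the combined list, 20 of 1712. When gaps of less than 2 kb were joined, the domain was 34.6 kb in replicate 1 and 36.9 kb in replicate 2, and its ranks were 24 of 1036 and 50 of 1103. In the combined list it stayed at 34.6 kb and ranked 79 of 1019.

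On the high-coordinate side the domain ended in a gap that each list held, and smaller regions followed. The gap measured 4672 bases in replicate 1, 5429 in replicate 2 and, for the combined list, 5234. These lengths stood at percentiles 58.6, 75.6 and 73.9 of the gaps on 3R, whose medians were 3256, 1674 and 1552.5 bases. After it came 3R:18981009-18983528 in the combined list, 2.52 kb wide with a score of 0.68. The same place was marked over 2.28 kb in replicate 1, with a score of 0.72, and over 4.35 kb in replicate 2, with a score of 0.56. The combined list held another 2 regions near the end of the window, 3R:18983588-18985322 (1.74 kb wide) with a score of 0.18 and 3R:18987660-18989054 (1.40 kb wide) with a score of 0.22. Both scores were near the bottom of the list on 3R, at percentiles 4.54 and 7.24. The 1.74 kb region lay wholly inside the 4.35 kb region of replicate 2 and had 0% of its bases in replicate 1. The 1.40 kb region had 90.0% of its bases in replicate 1 and 0% in replicate 2.

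**Figure D2:**
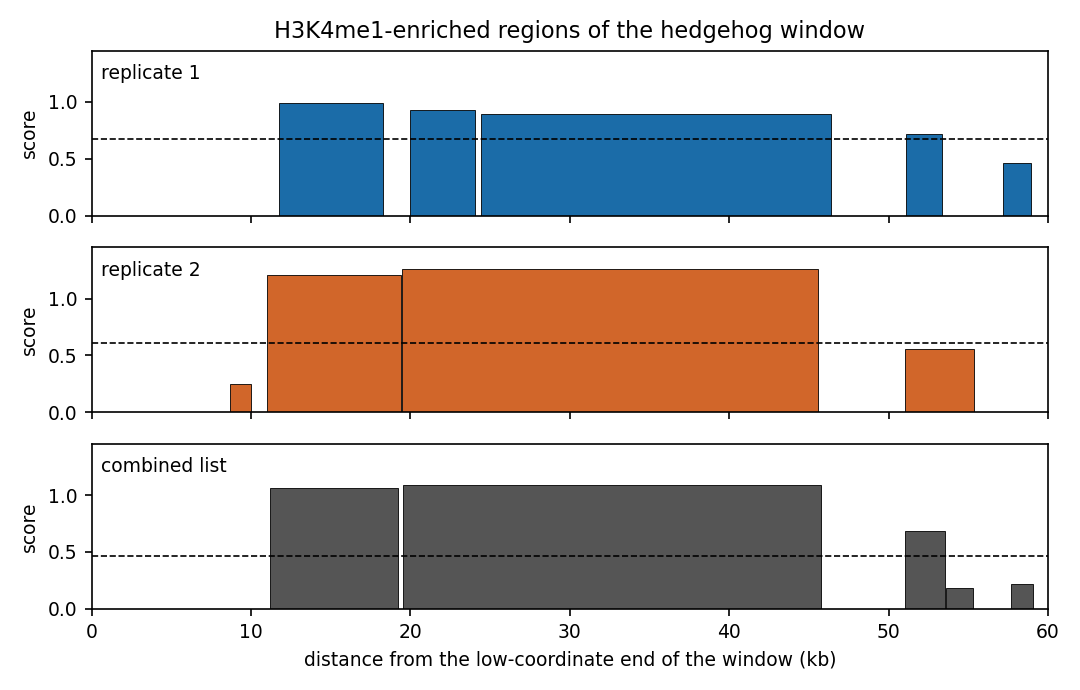
Enriched regions in the hh window, drawn as boxes from start to end (x axis, kb from the low-coordinate end of the window) with the height of the deposited score (y axis), in replicate 1, replicate 2 and the combined list; the dashed line is the median score of 3R in that list. In each list a broad block fills the middle of the window, the low-coordinate end is empty, and a gap of 4672 to 5429 bases separates the block from smaller regions.

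The low-coordinate end of the window was free of enriched regions. No list marked the 8683 bases from 3R:18930001 to 3R:18938683. This stretch belonged to a longer gap that began outside the window and measured 22.7 kb in replicate 1, 15.8 kb in replicate 2 and, for the combined list, 18.4 kb. Between 88.0% and 91.0% of the gaps on 3R in the same list were shorter. Inside the window the longest stretch outside enriched regions was 11.8 kb in replicate 1 and 8.68 kb in replicate 2 (mean 10.2 kb ± 2.18, SD, n = 2). No depleted region overlapped the window, but such regions were few, numbering 0 for the whole of replicate 1, 39 for replicate 2 and 17 for the combined list.

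Along the window in steps of 5 kb, the mark filled the middle of the window and fell off on both sides. The 4 steps from 25 to 45 kb were covered to 100% in every list. The step from 20 to 25 kb was covered to 93.1% in replicate 1 and 100% in replicate 2. Of all 5 kb steps along 3R, 9.23% in replicate 1 and 7.65% in replicate 2 were fully covered, and 4.09% were so in all 3 lists. On the low-coordinate side, the step from 10 to 15 kb was covered to 64.7% in replicate 1 and 80.2% in replicate 2. The step from 5 to 10 kb was covered to 0% and 26.3%. On the high-coordinate side, coverage dropped to 28.1% in replicate 1 and 11.7% in replicate 2 in the step from 45 to 50 kb. It was higher in the step from 50 to 55 kb, at 45.7% and 79.8%, and was 34.7% and 7.24% in the last step. In the last step replicate 1 was thus the higher, and in the step before it replicate 2.

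The replicates marked mostly the same bases of the hh window. They shared 34.1 kb, which was 79.7% of the bases marked in either, 93.0% of those of replicate 1 and 84.8% of those of replicate 2. Over the whole of 3R the shared part was 65.4% of the union, 84.5% of replicate 1 and 74.2% of replicate 2. Of 413 windows with a region in either replicate, 85.0% had a smaller shared part than the hh window, and the median was 64.7%. Among the 81 windows whose union lay within 10 percentage points of that of the hh window (71.3% of the window), the median was 68.3%, and 84.0% had a smaller shared part. All of the 34.1 kb shared by the replicates lay in the combined list, which rests on the same 2 ChIP samples and is not independent agreement.

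Bases marked in a single replicate lay at the borders of the domain, in the breaks of replicate 1 and in or beside small regions. Replicate 2 alone marked 6.13 kb and replicate 1 alone 2.56 kb. The region 3R:18987179-18988915 of replicate 1, 1.74 kb wide with a score of 0.47, had 0% of its bases in replicate 2, although 72.3% of them lay in the combined list. The region 3R:18938684-18939998 of replicate 2, 1.32 kb wide with a score of 0.25, had 0% of its bases in replicate 1 or in the combined list. It was among the narrowest regions of its list on 3R, with 0.978% narrower.

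Borders of the marked block, taken from the start of the second broad region to the end of the widest one, were compared between the replicates. The low-coordinate border of the second broad region lay at 3R:18941766 in replicate 1 and 3R:18940993 in replicate 2, 773 bases apart. The high-coordinate border of the widest region lay at 3R:18976407 and 3R:18975583, 824 bases apart. For comparison, 1576 regions of replicate 1 on 3R overlapped replicate 2. Their median distance to the nearest such border of replicate 2 was 440.5 bases at the low-coordinate end and 424 at the high-coordinate end. The quartiles were 147 and 1458.5 bases at the low-coordinate end, and 159 and 1504 at the high-coordinate end. The 773 and 824 bases stood at percentiles 61.2 and 62.9, above the medians but within the quartiles. The start of the widest region itself lay at 3R:18954405 and 3R:18949464, 4941 bases apart, because of the break of 346 bases in replicate 1. The start of the region beyond the gap was the closest match, at 3R:18981080 and 3R:18981013, 67 bases apart, where 11.4% of regions on 3R had a smaller distance.

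Among all regions of 3R, scores of the domain ranked higher in replicate 2 than in replicate 1. In replicate 2 the 26.1 kb region was also the highest-scoring of the window and stood at percentile 94.7 of the regions of 3R, where 5.34% scored at least as high. In the combined list the 26.3 kb region led too, with 5.28% of regions scoring at least as high. In replicate 1 the highest score of the window belonged to the 6.52 kb region, at percentile 83.7, where 16.3% scored at least as high, and the 22.0 kb region stood at percentile 77.0. Wider regions tend to score higher in these lists. Within the fifth of the regions of 3R with the greatest width, the widest region of the window stood at percentile 30.8 in replicate 1 and 81.1 in replicate 2. The mean score over the covered bases of the window was 0.89 in replicate 1, at percentile 66.7 of 403 windows with a region, and 1.14 in replicate 2, at percentile 93.9 of 408. The widest region, and the covered bases of the window as a whole, thus ranked higher by score in replicate 2. With 3R regions split by width into 5 groups, the second broad region went the other way. It stood at percentile 78.7 of its own group in replicate 1 and 76.0 in replicate 2. The 4.11 kb piece of replicate 1 stood at percentile 88.2 of its own group.

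**Figure D3:**
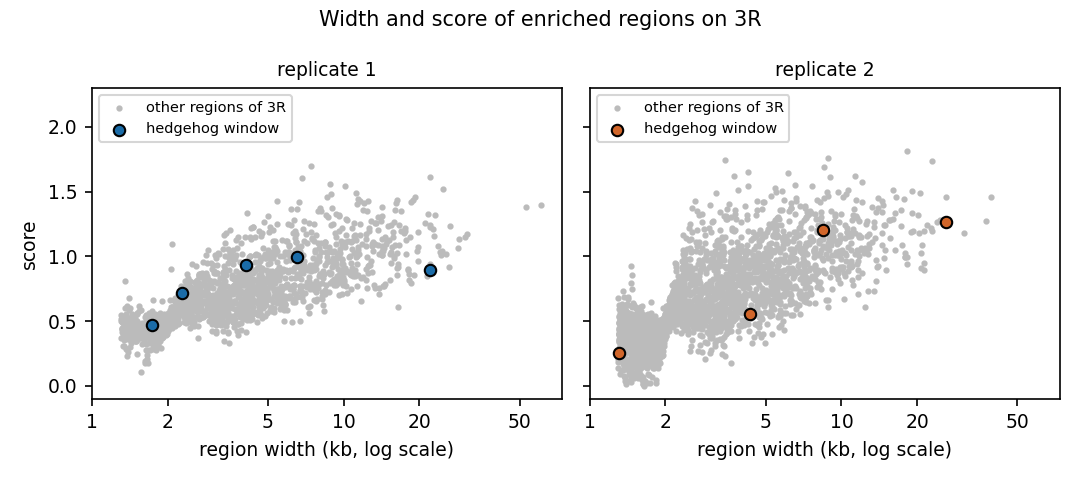
Score (y axis) against width (x axis, kb, log scale) of the enriched regions of 3R in replicate 1 and replicate 2, with those of the hh window as large coloured points. The widest hh region scores 0.89 at 22.0 kb in replicate 1 and 1.26 at 26.1 kb in replicate 2. Within the widest of 5 groups of 3R regions split by width, these scores stand at percentiles 30.8 and 81.1. Most regions of that group are narrower than the hh region, and no rank among regions as wide was computed.

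Coverage fell away to 0% on the low-coordinate side of the hh window and alternated between dense and sparse windows on the other. The 60 kb window just before it was covered to 32.8% in replicate 1 and 41.7% in replicate 2, and the window before that to 8.37% and 15.0%. The next 3 windows in that direction held 0% in every list. The 60 kb window just after the hh window was covered to 77.0% in replicate 1 and 62.1% in replicate 2, so that replicate 1 marked it more densely than the hh window and replicate 2 less densely. Coverage was 30.4% and 26.6% in the window after that, and 70.4% and 53.3% in the next. The 3 windows beyond lay between 15.0% and 27.2% in replicate 1 and between 24.1% and 36.7% in replicate 2. Neither adjacent window held a region of at least 20 kb. The nearest such region lay 759.7 kb away in replicate 1 and 581 kb away in replicate 2, towards higher coordinates. In the combined list it lay 464.5 kb away towards lower coordinates, against 584.55 kb on the higher side. These distances depend on the cut of 20 kb, which was not varied. Replicate 1 held a region of 19.5 kb, just under the cut, much nearer, at 3R:19155834-19175347 with a score of 1.04.

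**Figure D4:**
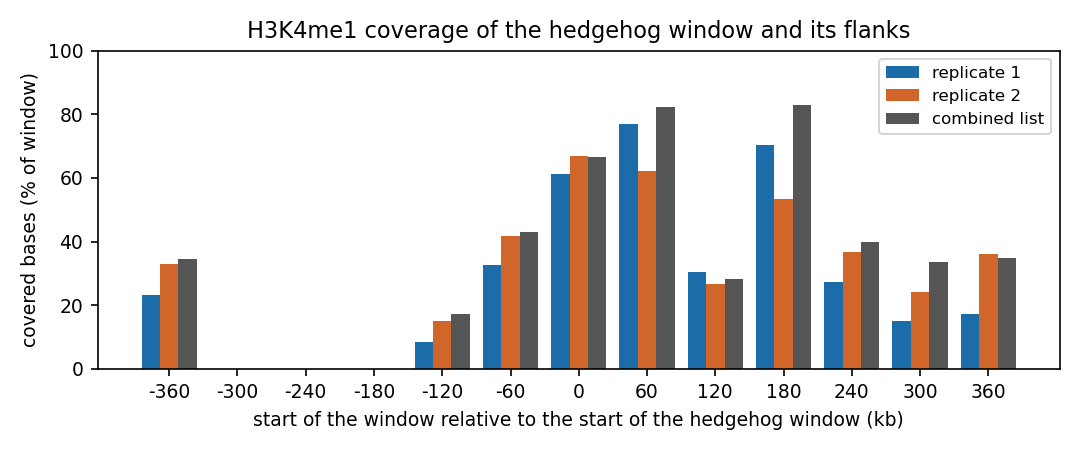
Percentage of bases inside enriched regions (y axis) in the hh window, at 0, and in 6 windows of 60 kb on each side (x axis, start of each window relative to that of the hh window, in kb), for replicate 1, replicate 2 and the combined list. The windows at -300, -240 and -180 kb are at 0% in every list. In replicate 1 and the combined list the windows at 60 kb and at 180 kb exceed the hh window.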

How the data were processed

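H3K4me1 ChIP-seq was deposited as 3 lists of regions on FlyBase release 5, per the file headers: 1 for each of 2 ChIP samples and a combined list. The submitters' processing notes name the aligner Bowtie, version 0.12.7. Not given in the sources used here are the region caller, its threshold and the making of the combined list. Each region carries a deposited score, the authors' own value, of unstated scale; regions named depleted were set aside. The window and the lists were chosen with earlier results of these data known. Covered bases, gaps and shared bases were counted in the window and in 465 windows of 60 kb laid end to end from the first base of 3R (27.9 Mb). A percentile is the share of windows, regions or gaps of the same list with a smaller value. Every region of the combined list in the window is named, with the widest and the highest-scoring of each replicate; other regions and border positions were named after their values were seen. Groups came from the sample titles, and the inputs entered only as background of the lists, per the labels. No test was run, since 2 samples of 1 group are too few for an exact test. Python 3.11.15, NumPy 2.4.6, pandas 2.3.3 and Matplotlib 3.10.9 were used, and the counting was tested on simulated data.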

Additional observations from a re-analysis of the deposited data

How the results depend on the processing

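No paired analysis was possible because the series has a single group of ChIP samples. Of 32 alternative values, 14 stayed within the spread between the replicates, and 18 moved beyond it or had no spread to be set against. With 2 replicates, leaving either out cannot move a value beyond that spread. Those values are counted among the 14 and say nothing about stability. Mean coverage of the hh window (64.1%) was 57.9% with the higher-scoring 50% of regions, 58.4% and 73.5% with the window shifted by 10 kb to lower and higher coordinates, and 84.0% in its central 40 kb. It was 61.1% to 67.0% with either replicate left out. Its percentile on 3R (88.4 in both replicates, so any change counts as a move) was 92.2 with the higher-scoring 50% and 87.7 with regions closer than 500 bases merged. It was 87.4 with windows laid from 30 kb into the arm, 88.5 without the 2 Mb next to the centromere, 87.8 over 5 large arms and 81.1 in the combined list. The shifted windows gave 83.4 and 94.2. Windows sliding by 1 kb, chosen after seeing the data, gave 87.8. The shared part of the union (79.7%) was 84.4%, 80.4% and 89.9% with the higher-scoring 50%, with merging and in the central 40 kb. The longest stretch outside regions (10.2 kb) was 13.1 kb with the higher-scoring 50%, and 8.68 to 11.8 kb with either replicate left out. The highest score percentile (89.2, a mean over the replicates) came from a different region in each replicate. These were the 6.52 kb region of replicate 1 and the 26.1 kb region of replicate 2. When 3R regions were split by width into 5 groups, the mean within each region's own group was 79.9 (78.7 and 81.1). The widest region of replicate 1 stood at 30.8 in its group. The highest score percentile was 83.7 to 94.7 with either replicate left out. The depth of the lists is unknown, so small regions seen in a single list may be limited by it; this was not tested.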

Other observations

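A long stretch without enriched regions lay on the low-coordinate side of the hh window. It measured 217 kb in replicate 1, 205 kb in replicate 2 and 213 kb in the combined list (3R:18609447-18822396), and ended 107 kb, 106 kb and 108 kb before the window. Among the gaps of 3R it ranked 4, 4 and 3 by length, of 1687, 2450 and 2288. How much of this stretch is repeated sequence was not examined.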
